A study of Homo sapiens with 4 samples.

Results

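Expression of 31 genes of cholesterol and fatty acid synthesis was examined in MCF10A cells with and without overexpression of HSF1, the transcription factor that activates heat shock genes. The genes were listed by symbol for their known roles, with earlier results of these data known, in 3 arms: 18 enzymes of sterol synthesis, 5 genes that regulate the SREBP pathway or carry sterol, and 8 genes of fatty acid synthesis and desaturation. Other enzymes of these pathways were not analysed here, apart from the genes of 6 further lists given below. All 31 were found by Ensembl identifier among the 63856 genes of the deposited count table, and all 31 passed the filter on low counts, as did 15830 genes in total.

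MCF10A is a non-tumorigenic, immortalized line of human mammary epithelium, grown here with horse serum, insulin, hydrocortisone, epidermal growth factor and cholera toxin. Wild type (WT) cells, which carried no vector, were compared with HSF1-pLVX cells, transduced with a lentiviral pLVX-Puro vector holding HSF1 cDNA and selected with puromycin, with 2 biological replicates of each. Cells with the empty vector were not analysed here, so effects of HSF1, of the vector and of selection cannot be told apart. The 4 libraries of total RNA depleted of ribosomal RNA held between 18688109 and 24184285 counts. HSF1 itself stood at 200.4 and 189 CPM (counts relative to the library size after TMM normalization) in WT replicates 1 and 2 and at 982 and 999 CPM in the HSF1-pLVX replicates, a log2 fold change of 2.35 ± 0.10 (SE; adjusted p = 1.14e-10 in the quasi-likelihood test of edgeR, adjusted by Benjamini and Hochberg over all tested genes). Of 9 genes listed as markers of mammary epithelium, chiefly basal, all 9 were measured in every library and passed the filter. CDH1 and EPCAM among them are not particular to basal cells, and the study took low EPCAM as basal. In HSF1-pLVX cells 6 of the 9 were at least 2-fold lower, among them KRT14 and CDH1, beside 14.0% of all tested genes. KRT5 and TP63 were at least 2-fold higher, beside 14.9% of all tested genes. The summed level of the 9 went from 22951 and 21961 CPM to 11639.9 and 12257 CPM. The defining markers of adipocytes, hepatocytes and leukocytes reached at most 13 counts in any library. Of the 8 fibroblast markers, 6 did not pass 10 counts anywhere, COL1A1 held 135 to 269 counts in every library and did not pass the test (adjusted p = 0.353, edgeR), and DCN held 1 and 3 counts in WT and 94 and 87 in HSF1-pLVX libraries and was called higher (adjusted p = 1.12e-07). All 4 listed proliferation genes, MKI67, TOP2A, PCNA and MCM2, were called higher in HSF1-pLVX cells, beside 32.7% of all tested genes. Their summed level was 191 and 153 CPM in WT and 687 and 604 CPM in HSF1-pLVX replicates. By crystal violet staining, however, the study found growth of MCF10A cells unaffected by stable HSF1 overexpression. The part of these markers in the results below was not tested.

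Cholesterol is built from acetyl-CoA through mevalonate and isoprenoid phosphates to squalene, which is closed to a ring and trimmed to cholesterol. The genes of this route are known targets of the SREBP transcription factors. SREBP precursors are held in the endoplasmic reticulum with the escort SCAP by INSIG proteins when sterol is plentiful, and are carried to the Golgi and cleaved when sterol falls. SREBF2 encodes the form best known for sterol genes and SREBF1 the forms best known for fatty acid genes. In epithelial cells both routes supply membrane lipid.

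The sterol arm was lower in HSF1-pLVX cells almost throughout, while the fatty acid arm was not displaced as a whole. Of the 18 sterol enzymes, 16 fell, 0 rose and 2 did not pass the test (adjusted p of 0.05). Of all tested genes, 33.2% were called lower and 32.7% higher, 65.9% in all. At least 2-fold falls were found for 11 of the 18 enzymes, against 14.0% of all tested genes. Their median log2 fold change was -1.17, beside 0.02 over all tested genes. The summed level of the 18 enzymes was 1890.1 and 2068 CPM in WT replicates 1 and 2 and 1061 and 1019 CPM in the HSF1-pLVX replicates, or 52.5% of WT. Among the 8 fatty acid genes, 2 rose, 2 fell and 4 did not pass, with a median log2 fold change of 0.00 and a sum of 2517 and 2430 CPM in WT against 2629 and 2410 CPM in HSF1-pLVX cells. The 5 regulators and carrier all changed, 2 upwards and 3 downwards. With 2 libraries per group the smallest p of an exact permutation test is 0.33, so single genes were tested with a spread that borrows from other genes. The counts describe the lists, and the lists themselves were not tested. In RNA from bulk cultures, fewer cells of a type and less RNA per cell cannot be told apart.

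**Figure D1:**
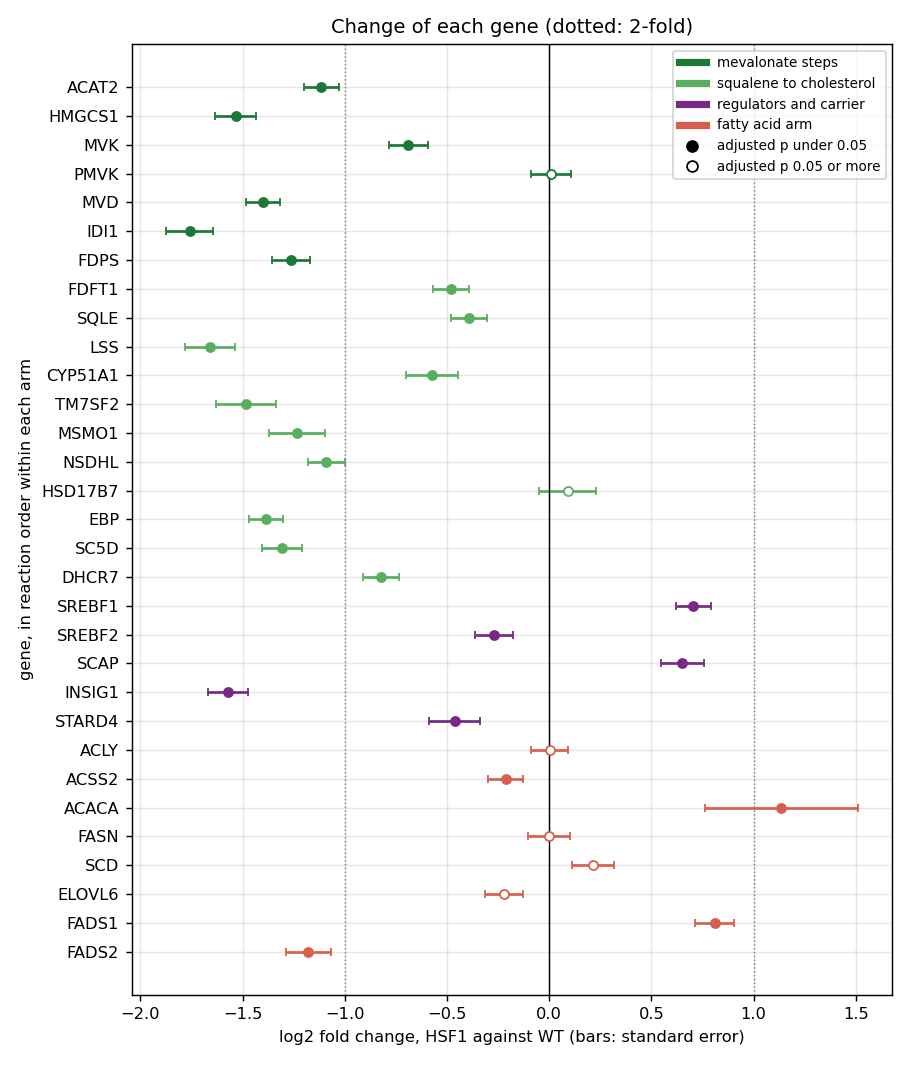
Fitted log2 fold change of each of the 31 genes, HSF1-pLVX (labelled HSF1) against WT, on the x axis, with its standard error as a bar, 2 libraries per group. The sterol enzymes run in reaction order, filled points passed an adjusted p of 0.05 and dotted lines mark 2-fold. The reaction order named on the axis does not hold for the regulators and carrier, nor for FADS1 and FADS2. All sterol enzymes but PMVK and HSD17B7 lie left of 0, whereas the fatty acid genes lie on both sides between -1.18 and 1.14.

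**Figure D2:**
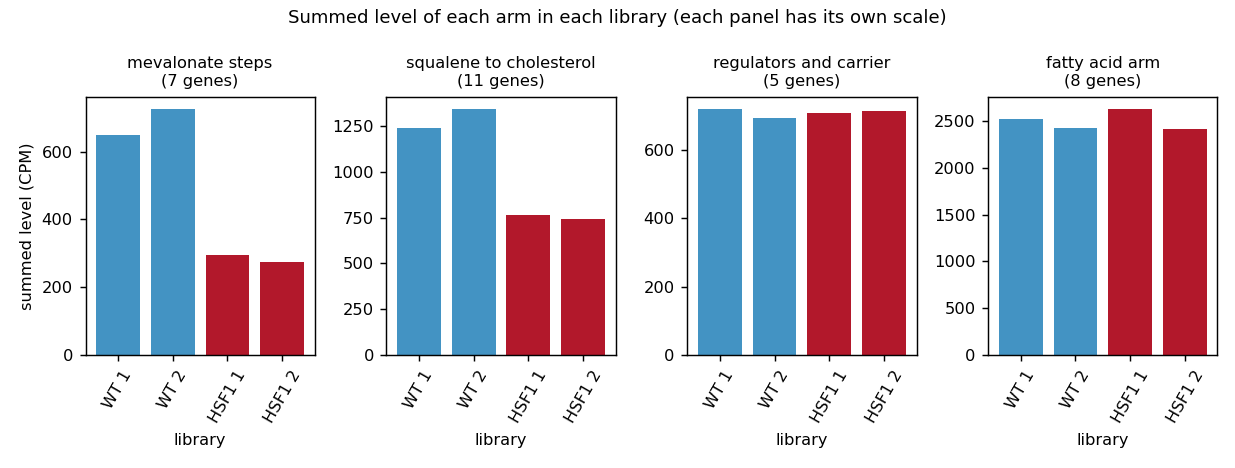
Summed level of each arm in each library, in CPM, with bars that start at 0 and a scale of its own for each panel. The mevalonate enzymes stood at 649 and 726 CPM in WT and at 295 and 275 CPM in HSF1-pLVX replicates, and the fatty acid arm between 2410 and 2629 CPM in all 4 libraries.

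Promoter sequence was compared because the sterol genes moved together. SREBP acts at such promoters beside NF-Y, which binds CCAAT, and Sp1, which binds GC boxes. RefSeq windows (GRCh38.p14) from 250 bases before to 50 bases after a start site were at hand for 27 of the 31 genes, not for ACAT2, FASN, FDFT1 and SQLE. The stretches shown belong to the 4 genes with the largest falls and to SREBF1 and SCAP, which rose. Where a gene has several windows, that nearest the counted 5′ end is shown. Each runs 5′ to 3′ on the strand of its gene and leaves out bases that GENCODE release 44 places in an exon of any gene. Capitals mark CCAAT boxes (CCAAT or its reverse complement) and GC boxes (GGGCGG or its reverse complement).
IDI1 (chr10:1049120-1049369, minus strand): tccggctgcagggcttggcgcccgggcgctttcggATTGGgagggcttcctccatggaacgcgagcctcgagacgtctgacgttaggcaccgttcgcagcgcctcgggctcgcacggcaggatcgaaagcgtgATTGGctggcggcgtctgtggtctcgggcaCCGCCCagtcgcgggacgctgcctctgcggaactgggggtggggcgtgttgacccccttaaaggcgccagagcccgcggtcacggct
LSS (chr21:46228825-46229024, minus strand): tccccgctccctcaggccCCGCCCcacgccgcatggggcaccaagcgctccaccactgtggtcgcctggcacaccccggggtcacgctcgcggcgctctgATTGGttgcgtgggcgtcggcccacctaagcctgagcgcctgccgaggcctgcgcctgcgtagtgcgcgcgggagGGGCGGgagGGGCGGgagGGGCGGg
INSIG1 (chr7:155297628-155297775, plus strand): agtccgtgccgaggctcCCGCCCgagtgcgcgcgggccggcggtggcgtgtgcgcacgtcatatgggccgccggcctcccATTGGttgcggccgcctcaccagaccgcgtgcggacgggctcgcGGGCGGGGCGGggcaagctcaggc
HMGCS1 (chr5:43313513-43313662, minus strand): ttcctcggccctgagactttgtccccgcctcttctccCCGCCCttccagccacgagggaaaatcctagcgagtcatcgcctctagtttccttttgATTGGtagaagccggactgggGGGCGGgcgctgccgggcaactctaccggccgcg
SREBF1 (chr17:17837003-17837236, minus strand): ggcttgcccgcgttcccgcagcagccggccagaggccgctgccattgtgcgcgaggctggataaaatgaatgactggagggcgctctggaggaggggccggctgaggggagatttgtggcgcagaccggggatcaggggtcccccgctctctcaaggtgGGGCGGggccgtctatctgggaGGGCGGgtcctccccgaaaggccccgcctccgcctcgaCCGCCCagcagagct
SCAP (chr3:47475956-47476191, minus strand): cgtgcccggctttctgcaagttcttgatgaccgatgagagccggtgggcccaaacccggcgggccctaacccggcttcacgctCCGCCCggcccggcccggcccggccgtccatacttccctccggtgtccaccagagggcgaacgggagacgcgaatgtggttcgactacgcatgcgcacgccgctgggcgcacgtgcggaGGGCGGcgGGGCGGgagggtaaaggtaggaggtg
The stretches of IDI1, LSS, INSIG1 and HMGCS1 each hold a CCAAT box with at least 1 GC box, while those of SREBF1 and SCAP hold 3 GC boxes each and no CCAAT box. Over the whole windows, with a match in any window of a gene counted, CCAAT occurred in 13 of 15 sterol enzymes (86.7%) and 5 of 7 fatty acid genes (71.4%). It occurred in 42.6% of the 10972 tested genes with a window and in 34.6% of all 35116 windows. Among members at least 2-fold lower it was found in 12 of 12 with a window, and among members called higher in 1 of 4. Among members not called it was found in 3 of 5. Among all tested genes the share was 43.4% of those at least 2-fold lower, 42.6% of those called higher and 41.7% of those not called. With only the window nearest the counted 5′ end of each gene, a choice added after seeing the data, CCAAT occurred in 12 of 15 sterol enzymes (80.0%), 3 of 7 fatty acid genes (42.9%) and 36.4% of tested genes. It was then found in 11 of 12 members at least 2-fold lower, FADS2 being the exception, beside 35.3% of all tested genes that fell as far, and in 0 of 4 members called higher. The share of the fatty acid arm was thus near the background in that window, but it depends on which window is taken. The nearest windows of FADS2, FADS1, ACLY and ACSS2 start 23223, 12315, 11520 and 2843 bases from the counted 5′ end. For the sterol enzymes CYP51A1 and DHCR7 the distances are 8475 and 3825 bases. The other window of FADS2 holds 1 CCAAT box. HSD17B7, ACLY and SCD, which were not called, each held 2 CCAAT boxes in their nearest window. GC boxes were common everywhere, in 26 of 27 members, 75.2% of tested genes and 45.0% of all windows. Some GC boxes overlap each other, as in INSIG1. The E-box CACGTG stood in 4 of 27 members, 12.0% of tested genes and 7.3% of all windows. The sterol response element-like TCACNCCAC was found in SREBF2 alone among the members, starting 133 bases before its start site (position -133), and in 1.4% of tested genes and 1.1% of all windows. The inverted repeat GAANNTTC, like that of heat shock elements, was found in 0 of 27 members, beside 6.6% of tested genes and 6.8% of all windows. All motifs were searched on both strands, and a match or its absence in this window is a description of letters only.

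**Figure D3:**
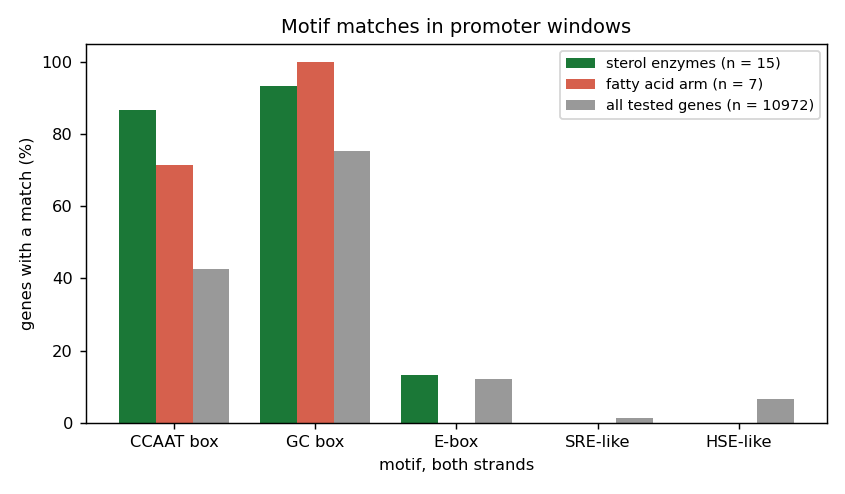
Share of genes, in percent on the y axis, with a match in any of their promoter windows for each of 5 motifs on the x axis, for the sterol enzymes (n = 15), the fatty acid arm (n = 7) and all tested genes with a window (n = 10972). The CCAAT box shows the wide gap, at 86.7, 71.4 and 42.6% (80.0, 42.9 and 36.4% with the nearest window alone), and the sterol response element-like and heat shock element-like motifs are at 0 in both arms.

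The early, mevalonate part of the sterol arm had the lower median fold change and the lower sum relative to WT, an order that was not tested. Of its 7 enzymes 6 were lower, 5 of them at least 2-fold, with a median log2 fold change of -1.26, and their summed level was 41.5% of WT. ACAT2, the thiolase that joins acetyl-CoA units, stood at 69.9 and 72.4 CPM in WT and at 34.2 and 31.5 CPM in HSF1-pLVX replicates, a log2 fold change of -1.11 ± 0.09 (SE; adjusted p = 5.12e-08, edgeR). As much as 52.3% of its exon bases also lie in genes on the other strand, and since the strand setting of the counting is not stated, these reads could not be told apart. HMGCS1, the synthase that makes HMG-CoA, went from 147 and 173 CPM to 57.6 and 52.6 CPM (log2 fold change -1.53 ± 0.10, adjusted p = 7.47e-09). MVD, which decarboxylates mevalonate diphosphate, went from 105 and 110.3 CPM to 40.2 and 41.4 CPM (-1.40 ± 0.08, adjusted p = 3.34e-09).

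IDI1, the isomerase of isopentenyl diphosphate, had the deepest fitted fall of the 31 genes (ENSG00000067064.10, chromosome 10 of hg38, 1039908 to 1049170, minus strand). It measured 94.5 and 119.8 CPM in WT and 33.7 and 29.5 CPM in HSF1-pLVX cells, 3.38-fold lower (log2 fold change -1.76 ± 0.11, adjusted p = 6.94e-09, edgeR). Its 95% interval, from -2.00 to -1.52, overlaps those of LSS, INSIG1 and HMGCS1 among others, so the order among them is not resolved. FDPS, which condenses the units to farnesyl diphosphate and closes this part of the route, fell from 164 and 181 CPM to 75.2 and 68.4 CPM (-1.26 ± 0.09, adjusted p = 2.66e-08). In none of these 5 genes did the groups overlap, as held for 41.0% of all tested genes with HSF1-pLVX lower. Mevalonate kinase, MVK, fell less, 1.61-fold (log2 fold change -0.69 ± 0.09, adjusted p = 1.58e-05).

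The next kinase in the chain stood apart. PMVK, phosphomevalonate kinase, measured 26.3 and 24.8 CPM in WT and 25.3 and 26.1 CPM in HSF1-pLVX cells, so that the groups overlapped. Its log2 fold change was 0.01 with a 95% interval from -0.20 to 0.21, and the adjusted p was 0.942 in edgeR's test. The interval leaves out a fall of the size seen in MVK, whose own interval ran from -0.89 to -0.49.

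From squalene on to cholesterol, 10 of 11 enzymes were lower and 6 at least 2-fold, with a median log2 fold change of -1.09 and a summed level of 58.5% of WT. The entry enzymes were among the most abundant per kilobase and changed least among those called. FDFT1, squalene synthase and the first enzyme committed to sterols, measured 322 and 321 CPM in WT and 234 and 226 CPM in HSF1-pLVX cells, 1.40-fold lower (log2 fold change -0.48 ± 0.09, adjusted p = 2.44e-04, edgeR). SQLE, the epoxidase that acts next, was 1.31-fold lower (-0.39 ± 0.09, adjusted p = 1.32e-03). These 2 genes and MSMO1 had the highest levels per kilobase of the sterol enzymes in WT cells, 61.8, 55.6 and 74.2 CPM per kilobase.

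Ring closure and the later steps fell further. LSS (ENSG00000160285.14, chromosome 21 of hg38, 46188141 to 46228824, minus strand), lanosterol synthase, measured 24.03 and 27.0 CPM in WT and 7.61 and 8.61 CPM in HSF1-pLVX cells, 3.16-fold lower (log2 fold change -1.66 ± 0.12, adjusted p = 2.85e-08, edgeR). TM7SF2, a sterol reductase, measured 15.7 and 13.1 CPM and then 5.14 and 5.18 CPM (-1.48 ± 0.15, adjusted p = 6.58e-07). MSMO1, the methylsterol oxidase, measured 176 and 253 CPM in WT and 96.9 and 85.7 CPM in HSF1-pLVX cells (-1.23 ± 0.14, adjusted p = 2.06e-06). Its WT replicates lay further apart than those of any other sterol enzyme in CPM, and both were still above both HSF1-pLVX values.

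NSDHL, which acts with MSMO1 in the removal of methyl groups, measured 51.1 and 49.5 CPM in WT and 23.3 and 23.96 CPM in HSF1-pLVX cells (log2 fold change -1.09 ± 0.09, adjusted p = 8.33e-08, edgeR). For EBP, the sterol isomerase, the values were 99.35 and 99.9994 CPM in WT and 39.0 and 37.2 CPM in HSF1-pLVX cells (-1.39 ± 0.08, adjusted p = 3.39e-09). SC5D, the sterol desaturase, gave 84.6 and 102 CPM against 38.4 and 36.7 CPM (-1.31 ± 0.10, adjusted p = 3.3e-08). All 3 enzymes act in the tailoring of the ring system. DHCR7, the reductase that can form cholesterol, closes the list and fell from 212 and 204 CPM to 121 and 114 CPM (-0.82 ± 0.09, adjusted p = 1.28e-06).

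The other 2 enzymes of this stretch carry reservations. CYP51A1, the demethylase of lanosterol, was 1.49-fold lower (log2 fold change -0.57 ± 0.13, adjusted p = 1.22e-03, edgeR), but 78.8% of its exon bases are also annotated to LRRD1 on the same strand, so many of its reads could not be assigned to either gene with certainty. HSD17B7, the sterol ketoreductase, measured 9.59 and 11.9 CPM in WT and 11.1 and 11.9 CPM in HSF1-pLVX cells. Its groups overlapped, and the log2 fold change was 0.09 with a 95% interval from -0.21 to 0.39 (adjusted p = 0.589).

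Within the sterol enzymes, the median difference between libraries of one group was far smaller than that between the groups. The median signed log2 difference of the 18 genes was 0.07 between the WT replicates and -0.06 between the HSF1-pLVX replicates. It was -1.07 between the first replicates and -1.23 between the second replicates of the groups. Rises and falls cancel in such a median. Single genes reached 0.52 between WT replicates (MSMO1) and -0.19 between HSF1-pLVX replicates (IDI1). The groups did not overlap for 16 of the 18 genes, with HSF1-pLVX lower, against 41.0% of all tested genes in that direction and 42.1% in the other. By the ratio rule of the study, which asks for a ratio below 0.50 of the deposited normalized values in each replicate, 10 of the 18 enzymes were down and 0 up, beside 6.42% of all rows that were down and 5.0% that were up.

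**Figure D4:**
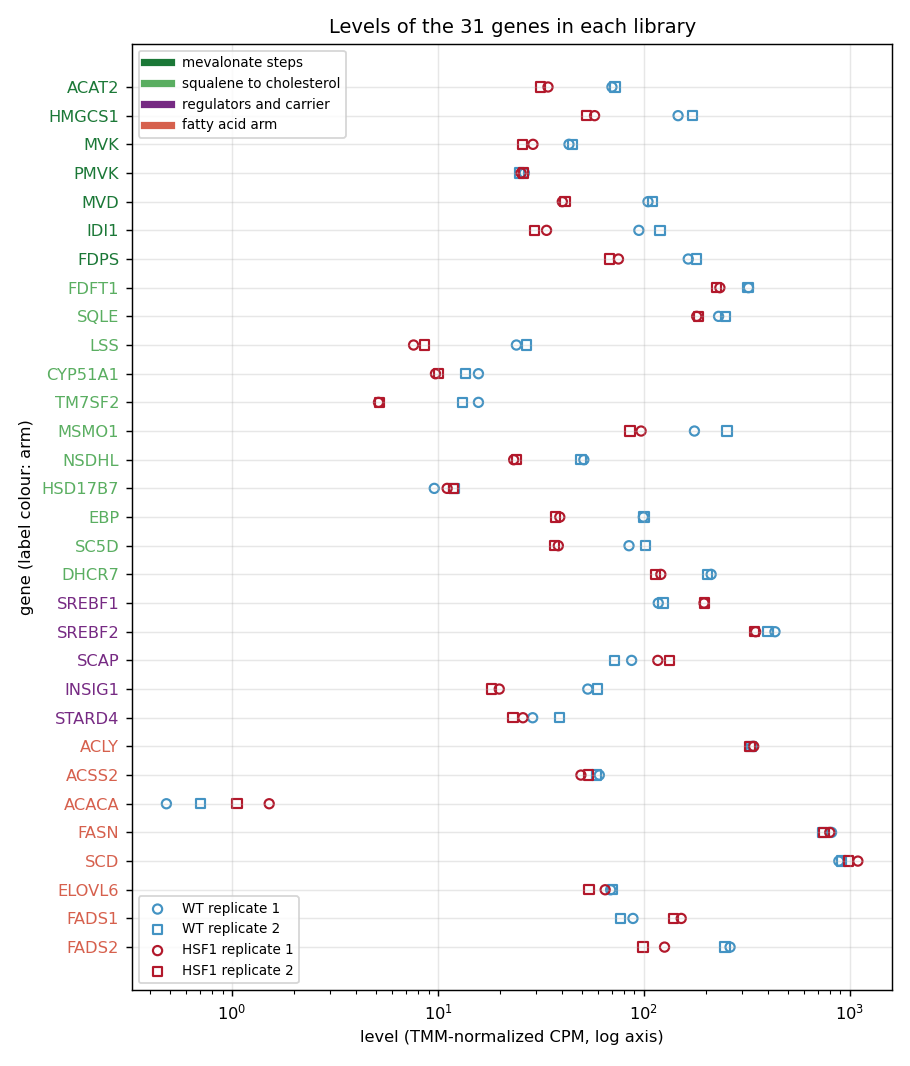
Level of the 31 genes in each library, in TMM-normalized CPM on a log axis, with WT in blue and HSF1-pLVX (labelled HSF1) in red, circles for replicate 1 and squares for replicate 2. Label colours give the arms. For 16 of the 18 sterol enzymes both red points lie left of both blue points, while ACLY, FASN, PMVK and HSD17B7 show overlapping groups.

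The genes that govern SREBP moved in opposite directions. SREBF1 measured 117 and 124 CPM in WT and 196 and 197 CPM in HSF1-pLVX cells, 1.63-fold higher (log2 fold change 0.70 ± 0.09, adjusted p = 5.48e-06, edgeR). The gene-level counts do not separate its transcript forms. SREBF2 measured 433 and 401 CPM in WT and 349 and 343 CPM in HSF1-pLVX cells. Its groups did not overlap, as held for 41.0% of all tested genes in that direction. The fall was small (log2 fold change -0.27 ± 0.09, adjusted p = 0.0192, edgeR). This call was lost with upper-quartile scaling (adjusted p = 0.0907) and without WT replicate 1 (0.153), HSF1 replicate 1 (0.0642) or HSF1 replicate 2 (0.153). Per kilobase of exon, the level of SREBF1 was 0.255 and 0.290 times that of SREBF2 in the WT replicates and 0.528 and 0.540 times in the HSF1-pLVX replicates.

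SCAP, the escort of both factors, rose from 87.2 and 71.9 CPM to 117 and 133 CPM (log2 fold change 0.65 ± 0.10, adjusted p = 7.24e-05, edgeR). INSIG1 (ENSG00000186480.12, chromosome 7 of hg38, 155297776 to 155310235, plus strand), the retention protein and itself a well-known SREBP target, fell from 53.4 and 59.5 CPM to 19.8 and 18.1 CPM, 2.97-fold (-1.57 ± 0.10, adjusted p = 4.96e-09). The fitted fall of INSIG1 lay between those of LSS and HMGCS1, and it was the only 2-fold change among these 5 genes. In INSIG1 and SCAP the groups did not overlap, as held for 41.0% of all tested genes downwards and 42.1% upwards. Per kilobase the ratio of INSIG1 to SCAP went from 1.06 and 1.43 in WT to 0.293 and 0.235 in HSF1-pLVX cells. STARD4, a carrier of cholesterol between membranes, was 1.38-fold lower (-0.46 ± 0.13, adjusted p = 5.08e-03). Its call was lost without WT replicate 2 (adjusted p = 0.0744) and without HSF1 replicate 2 (0.202).

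ACLY, FASN and SCD had some of the highest levels per kilobase among the members, and these 3 genes did not pass the test. ACLY, which makes cytosolic acetyl-CoA from citrate, measured 336 and 332 CPM in WT and 341 and 327 CPM in HSF1-pLVX cells. FASN, fatty acid synthase, measured 816 and 735 CPM in WT and 799 and 750.0 CPM in HSF1-pLVX cells. For both the groups overlapped and the log2 fold change was 0.00, with 95% intervals from -0.19 to 0.20 and from -0.22 to 0.22 (adjusted p = 0.981 and 0.992, edgeR). SCD, the desaturase that makes oleate, had the highest level per kilobase of all 31 genes, 167 CPM per kilobase in WT. It measured 885 and 908 CPM in WT and 1095 and 986 CPM in HSF1-pLVX cells (log2 fold change 0.21 ± 0.10, adjusted p = 0.0784). With library size alone or upper-quartile scaling SCD passed the test as higher (adjusted p = 0.0273 and 0.0170).

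ELOVL6, an elongase of palmitate, measured 68.9 and 70.1 CPM in WT and 64.8 and 54.2 CPM in HSF1-pLVX cells (log2 fold change -0.22 ± 0.09) and did not pass (adjusted p = 0.0521, edgeR), and 6 of the 14 other fits called it lower. ACSS2, which activates acetate, was 1.16-fold lower (-0.21 ± 0.09, adjusted p = 0.0404), a call lost in 8 of the 14. ACACA, acetyl-CoA carboxylase, held only 9 and 13 counts in WT and 38 and 21 counts in HSF1-pLVX libraries, or 0.479 and 0.700 CPM and 1.51 and 1.06 CPM (log2 fold change 1.14 ± 0.37, adjusted p = 0.0153). A second annotated copy on an alternate contig held more of the reads, and the 2 copies together gave 50, 45, 148 and 64 counts in the same order and a log2 ratio of 0.84 between the group means. The ACACA call was lost in DESeq2's test (adjusted p = 0.138), without WT replicate 1 (0.106) and without HSF1 replicate 1 (0.188), and its level is uncertain.

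The 2 desaturases of polyunsaturated fatty acids, neighbours on chromosome 11, moved in opposite directions. FADS1, the desaturase that acts later, measured 88.5 and 77.2 CPM in WT and 152 and 139 CPM in HSF1-pLVX cells, 1.75-fold higher (log2 fold change 0.81 ± 0.09, adjusted p = 3.37e-06, edgeR). FADS2, which acts first, measured 262 and 248 CPM in WT and 126 and 99.1 CPM in HSF1-pLVX cells, 2.26-fold lower (-1.18 ± 0.11, adjusted p = 3.3e-07). Neither pair of groups overlapped, as held for 42.1% of all tested genes upwards and 41.0% downwards. FADS1 thus stood, per kilobase of exon, at 0.364 and 0.336 of FADS2 in WT replicates and at 1.30 and 1.51 in HSF1-pLVX replicates. In hg38 FADS1 (ENSG00000149485.18) spans 61799625 to 61829318 on the minus strand and FADS2 (ENSG00000134824.13) spans 61792980 to 61867354 on the plus strand. They share 490 exon bases, 4.79% of the exon bases of FADS1.

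Further genes of lipid metabolism were read from 6 lists, which were not tested as lists. Beside their counts, 32.7% of all tested genes were called higher and 33.2% lower. Of 11 other genes of SREBP processing and sterol sensing, 3 rose and 2 fell. TMEM97, a sterol-binding membrane protein, was the 1 with a 2-fold change, from 10.9 and 9.58 CPM to 34.5 and 33.3 CPM (log2 fold change 1.73 ± 0.11, adjusted p = 5.76e-09, edgeR). The proteases MBTPS1 and MBTPS2, which cleave SREBP, did not pass (adjusted p = 0.723 and 0.151). INSIG2, the relative of INSIG1, fell by 0.71 on the log2 scale (adjusted p = 1.01e-04). Of 10 genes of cholesterol efflux, trafficking and esterification, 2 rose and 3 fell. NR1H3, the sterol-sensing nuclear receptor LXR alpha, rose from 6.34 and 6.62 CPM to 19.8 and 22.1 CPM (1.69 ± 0.13, adjusted p = 3.68e-08). NR1H2, the more abundant LXR beta, went the other way, from 94.8 and 81.9 CPM to 63.6 and 68.3 CPM (-0.42 ± 0.09, adjusted p = 1.01e-03). Of the efflux pumps that LXR is known to activate, ABCG1 rose (log2 fold change 0.41 ± 0.12, adjusted p = 8.82e-03) and ABCA1, at 0.36 ± 0.19, did not pass (adjusted p = 0.119). MYLIP of the same list, at -0.02 ± 0.18, did not pass either (adjusted p = 0.941). LXR activity was not tested. Of 9 genes of the isoprenoid branch, 2 rose and 3 fell, and PDSS1, of ubiquinone side-chain synthesis, was 2.22-fold higher (log2 fold change 1.15 ± 0.17, adjusted p = 4.03e-05).

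Fatty acid elongation, desaturation and activation changed gene by gene: of 18 tested genes among 20 listed, 5 rose and 8 fell. The shares over all tested genes were 32.7% higher and 33.2% lower. The median log2 fold change of the list was -0.03. SCD5, the second stearoyl-CoA desaturase, measured 235 and 254 CPM in WT and 20.9 and 14.9 CPM in HSF1-pLVX cells, 13.5-fold lower (log2 fold change -3.76 ± 0.13, adjusted p = 2.37e-11, edgeR). Per kilobase, SCD stood at 3.02 and 2.87 times SCD5 in WT and at 41.9 and 53.0 times in HSF1-pLVX replicates. ELOVL5, the elongase between FADS2 and FADS1 in polyunsaturated fatty acid synthesis, rose from 69.0 and 71.0 CPM to 227 and 228 CPM (1.70 ± 0.09, adjusted p = 7.23e-10). ELOVL4 and ELOVL7, elongases of very long chains, fell by 1.70 and 1.43 on the log2 scale. ACSL5, a fatty acyl-CoA ligase, rose (1.52 ± 0.15, adjusted p = 5.84e-07).

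Of 5 listed genes of citrate and NADPH supply, 4 were lower in RNA level, beside 33.2% of all tested genes. ME1, malic enzyme, which makes NADPH, was 2.32-fold lower, from 60.3 and 64.8 CPM to 29.2 and 24.4 CPM (log2 fold change -1.22 ± 0.10, adjusted p = 8.95e-08, edgeR). SLC25A1, the citrate carrier, fell by 0.67, IDH1 by 0.83 and PGD by 0.32 on the log2 scale. Of 11 tested genes of fatty acid oxidation and lipid storage, among 13 listed, 5 rose and 5 fell. Over all tested genes the shares were 32.7% and 33.2%. CPT1A, the gatekeeper of mitochondrial fatty acid uptake, fell from 153 and 165 CPM to 49.7 and 47.6 CPM (-1.71 ± 0.09, adjusted p = 7.43e-10). PLIN3, a lipid droplet coat protein, and PNPLA2, a triglyceride lipase, fell by 1.22 and 1.11 on the log2 scale. In the other direction DGAT2, of triglyceride synthesis, FABP5, a fatty acid binding protein, and ACADM, of mitochondrial oxidation, rose by 2.42, 2.01 and 1.58 on the log2 scale.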

How the data were processed

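RNA-seq libraries of MCF10A cells, 2 of WT and 2 of HSF1-pLVX cells, were analysed from the processed files, with groups and replicate numbers taken from the labels. The deposited counts per gene are raw and were made by the authors from paired-end reads of 76 bases aligned to hg38 with HISAT2 2.0.5, processed with SAMtools 1.13 and counted with featureCounts 1.6.5, on GENCODE release 26. Strand and multi-mapping settings are not given in the sources used here. The authors also deposited DESeq2 (1.32.0) normalized, log2-like values for 22321 rows named by symbol, used here for the ratio rule of the study (above 2.0 or below 0.50 in both replicates) and as an alternative.

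The test was the quasi-likelihood test of edgeR 4.0.16 (R 4.3.3) after filterByExpr and TMM normalization, with Benjamini-Hochberg adjustment over all 15830 tested genes. Calls were made at an adjusted p of 0.05, and at least 2-fold with a log2 fold change of 1 or more in size. Standard errors were taken from the log2 fold change and its F statistic. CPM are TMM-normalized, and levels per kilobase use the counted exon length of the deposited table. Library totals lay between 18688109 and 24184285 counts. Replicates of a group differed by more than sampling noise (chi-square per degree of freedom 4.39 in WT and 5.3 in HSF1-pLVX). The edgeR p-values rest on the spread between 2 cultures per group and on that of other genes (2 residual and 11.9 prior degrees of freedom). The script was tested on simulated data with known changes. Symbols came from GENCODE release 44, and promoter windows and motif matches from RefSeq sequences (GRCh38.p14), by symbol.

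Members, lists and tests were chosen with earlier results of these data known. All 31 members were named. Values in every library were given for members called with a 2-fold change, for SREBF1, SREBF2, SCAP and INSIG1 and for the ends of each arm, and single values were added for others. From the further lists, genes were named if called with a 2-fold change and 50 or more counts in both libraries of the group with the higher level, at most 3 per list and direction. Some genes of these lists are not reported here, and the counts leave them out. MBTPS1, MBTPS2, INSIG2, NR1H2, MYLIP, ABCA1, ABCG1, SLC25A1, IDH1 and PGD were named in addition after their values were seen. So were values of PMVK, HSD17B7, FASN, SCD and ACACA in single libraries. Of the promoter stretches, TM7SF2 was left out because its window lies in annotated exons, and FADS1 and ACACA were not shown because little of the FADS1 window lies outside exons and the ACACA level is uncertain. Alternatives covered normalization, the low-count filter, the test (DESeq2 1.42.0, limma-voom 3.58.1), the threshold, a replicate block and each library left out. Restriction to the main chromosomes, the sum of both ACACA copies and the nearest promoter window alone were added after seeing the data.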

Additional observations from a re-analysis of the deposited data

How the results depend on the processing

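Of the 497 values of single members under alternatives, 17 had the other sign than the reported value. They belong to PMVK, HSD17B7, ACLY and FASN, which were not called, with log2 fold changes between -0.09 and 0.24 over all settings. Among the called members 0 values changed direction. The 16 sterol enzymes called lower were called in each of the 14 other fits, and no other sterol enzyme was called. Losses of a call touched SREBF2, STARD4, ACSS2 and ACACA, and gains touched SCD and ELOVL6 (21 and 8 values).

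In the fatty acid arm, the number called lower was 1 in place of 2 with library size only, with upper-quartile scaling and with no filter on low counts. It was 3 with DESeq2 size factors, limma-voom, the robust quasi-likelihood fit and the main chromosomes alone. The number called higher was 3 in place of 2 with library size only and with upper-quartile scaling. DESeq2's Wald test and an adjusted p of 0.01 each gave 1 higher and 1 lower. With each library left out, where the lone sample is assumed to vary like the others, the arm had 1 to 2 genes higher and 1 to 2 lower, and the regulators and carrier had 1 to 2 lower. By the ratio rule of the study, 0 of the 31 members were higher and 12 lower, of which 10 were sterol enzymes, 1 a regulator (INSIG1) and 1 a fatty acid gene (FADS2), with 0 regulators and 0 fatty acid genes higher. The rule sets a 2-fold limit. The cause of the other shifts was not tested.

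The labels give replicate numbers 1 and 2 in both groups, but no source ties a number to one culture or day. Deviations of same-numbered libraries from their group means had a correlation of -0.015 over all genes tested and of -0.114 over 9672 genes that exceed 8 CPM. With the replicate block, which leaves 1 residual degree of freedom, 5138 genes were higher and 5171 lower in place of 5175 and 5253. Among members 4 were then higher and 20 lower, and SREBF2 (adjusted p = 0.0549) and ACSS2 (0.0572) no longer passed while ELOVL6 did (0.0402). ACACA held at most 38 counts in a library on the main chromosome, its counted reads being split over 2 annotated copies. Whether reads that match both copies were counted is not known, so the sum of the copies may not be the total.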
